A study of Mus musculus with 46 samples.

Results

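The H3.3 peaks of the cKit+ cells were compared with those of the cells at day 4 (D4) of the same transdifferentiation of mouse embryonic fibroblasts (MEFs) towards hematopoietic progenitors. All peaks of both chromatin immunoprecipitation (ChIP-Seq) libraries were taken, with no further selection. These were 28076 cKit+ peaks and 108179 D4 peaks, of 1022574 H3.3 peaks in the 16 H3.3 libraries of a series of 46 samples. The cKit+ peaks are the members described, and they were divided by whether D4 held them and by genomic class.

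At day 0 the MEFs had been sorted free of cells with hematopoietic surface markers. They were then transduced with constitutive retroviral vectors for Scl (the gene Tal1), Lmo2, Runx1 and Bmi1, together called SLBR, and grown with inactivated OP9 stromal cells and hematopoietic cytokines. D4 was collected unsorted at day 4 after SLBR induction. The cKit+ and cKit- libraries came from cells called fully transdifferentiated and sorted on the surface receptor cKit, with no day given. The labels' growth protocol describes the pluripotency factors for these samples too, so the culture given here follows the study's methods. Each group was 1 library, so no comparison has a replicate check, and the intervals below are 95% intervals that cover counting error only. OP9 cells are mouse stromal cells, so their chromatin and that of transduced fibroblasts cannot be told apart.

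H3.3 is a histone H3 variant that is placed in chromatin outside of DNA replication. The Hira complex places it over active genes, promoters and enhancers, where nucleosomes turn over, and the Atrx and Daxx complex places it at heterochromatin. In a change of cell identity it therefore reports which genes are or were in use, although an older nucleosome can persist after transcription has changed.

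The libraries differed in enrichment more than in depth. The cKit+ library had 91.8 M tags with 1.65% of them in peaks, against 63.7 M tags and 37.2% in D4, and the 4 transdifferentiation libraries ranged from 46.7 to 91.8 M tags. The cKit+ peaks were short and weak, with a median length of 500 bp, a median of 2.19-fold over input and 2.80% of peaks at 3-fold or more. The D4 peaks had a median of 1335 bp and 2.88-fold, reached 218.6 kb and covered 267.1 Mb of the genome, against 17.7 Mb in cKit+. A region without a cKit+ peak may thus hold H3.3 below what this library could show, and this holds for every loss described here. The share of tags in peaks moved with the D4 to cKit+ comparison throughout, and its part in the results was not tested.

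The strongest cKit+ peaks of each kind show what the members look like in sequence. Each sequence is taken from the centre of the highest-scoring cKit+ peak of its class or gene, from the mm9 genome (NCBI build 37), plus strand, without annotated untranslated regions. The starts shown are of shorter annotated transcripts, 11297 bp (Clk1), 144692 bp (Fndc3a) and 3106 bp (Bmi1) from the start of the gene. Capitals mark matches on either strand to the GATA motif AGATAA, the RUNX motif TGTGGT, the ETS motif AGGAAGT, the AP-1 motif TGANTCA or the E-box CAGCTG.
Clk1 internal transcript start, held by D4, chr1:58469582-58469763: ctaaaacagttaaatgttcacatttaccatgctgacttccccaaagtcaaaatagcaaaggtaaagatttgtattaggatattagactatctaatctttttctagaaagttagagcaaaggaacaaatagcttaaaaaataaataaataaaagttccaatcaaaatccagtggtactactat
Fndc3a internal transcript start, no D4 peak, chr14:72964969-72965268: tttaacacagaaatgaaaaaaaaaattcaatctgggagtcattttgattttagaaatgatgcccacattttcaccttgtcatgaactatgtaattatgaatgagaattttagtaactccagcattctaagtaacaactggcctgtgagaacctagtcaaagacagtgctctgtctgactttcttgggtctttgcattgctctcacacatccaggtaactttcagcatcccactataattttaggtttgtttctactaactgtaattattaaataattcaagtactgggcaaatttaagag
Intergenic, held by D4, chr12:55800601-55800900: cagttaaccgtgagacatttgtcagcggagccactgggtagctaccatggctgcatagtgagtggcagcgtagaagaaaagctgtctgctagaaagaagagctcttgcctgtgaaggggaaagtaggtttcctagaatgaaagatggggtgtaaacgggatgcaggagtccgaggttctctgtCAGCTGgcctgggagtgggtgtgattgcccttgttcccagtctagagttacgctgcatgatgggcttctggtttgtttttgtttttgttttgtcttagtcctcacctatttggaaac
Intergenic, no D4 peak, chr17:83388164-83388463: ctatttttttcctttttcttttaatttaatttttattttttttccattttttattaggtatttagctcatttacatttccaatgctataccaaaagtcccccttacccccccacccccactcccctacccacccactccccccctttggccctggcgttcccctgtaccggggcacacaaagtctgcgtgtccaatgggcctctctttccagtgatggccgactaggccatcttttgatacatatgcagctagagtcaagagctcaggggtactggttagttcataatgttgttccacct
Runx1 intron, held by D4, chr16:92611021-92611320: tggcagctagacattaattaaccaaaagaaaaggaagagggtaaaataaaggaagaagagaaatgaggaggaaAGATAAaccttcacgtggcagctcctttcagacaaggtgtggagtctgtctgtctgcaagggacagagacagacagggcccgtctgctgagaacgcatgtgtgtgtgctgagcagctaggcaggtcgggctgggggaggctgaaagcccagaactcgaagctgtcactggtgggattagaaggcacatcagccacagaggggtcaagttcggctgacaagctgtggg
Bmi1 internal transcript start, no D4 peak, chr2:18601601-18601900: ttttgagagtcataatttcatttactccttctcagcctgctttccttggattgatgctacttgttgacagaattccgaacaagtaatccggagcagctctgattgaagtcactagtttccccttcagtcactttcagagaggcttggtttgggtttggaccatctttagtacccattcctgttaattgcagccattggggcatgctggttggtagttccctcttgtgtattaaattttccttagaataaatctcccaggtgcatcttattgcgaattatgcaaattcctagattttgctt
Lmo2 intron, no D4 peak, chr2:103811985-103812284: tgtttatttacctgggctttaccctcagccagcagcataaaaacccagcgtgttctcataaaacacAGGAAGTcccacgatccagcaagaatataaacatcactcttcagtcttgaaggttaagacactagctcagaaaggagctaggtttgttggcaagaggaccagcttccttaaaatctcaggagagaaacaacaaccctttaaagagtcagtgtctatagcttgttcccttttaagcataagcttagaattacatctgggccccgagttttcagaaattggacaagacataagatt

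These peaks differed in what D4 and the input held around them. The Clk1 peak (Clk1 is a kinase of splicing factors), at 54.5 tags per 10 M, lay inside a D4 peak of 28.6 kb and 574.8 tags. The intergenic peak on chromosome 12, at 56.6 tags, lay inside a D4 peak of 23.9 kb and 650.7 tags, and both were also covered in MEF and cKit-. The intergenic peak on chromosome 17 had 46.8 tags, the most of any cKit+ peak without D4, but its input was 10.4 times the median input density of cKit+ peaks. It was 1 of 2 cKit+ peaks whose input exceeded 5 times that median. The Bmi1 and Lmo2 peaks were weak, at 4.2 and 6.32 tags, and lay outside the D4 peaks of the same genes.

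Most cKit+ peaks lay where D4 already held H3.3. A cKit+ peak was counted as held by D4 where at least 1 bp overlapped a D4 peak, and 19023 of the 28076 were, a share of 67.8% (67.2 to 68.3%). Of consecutive 500 bp windows of the whole genome, 12.5% overlapped a D4 peak, so the cKit+ share was 5.41 times that of the windows. The other 9053 cKit+ peaks had no D4 peak under them. Many of these lay beside one, with a median distance of 1954 bp to the nearest D4 peak and 82.2% (81.4 to 83.0%) within 10000 bp. Only 320 of them, 3.53%, were more than 50000 bp away.

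The share held by D4 depended on the genomic class of the peak. It was highest at transcription start sites, at 86.0% (84.1 to 87.7%) of 1396 promoter-TSS peaks, followed by 79.5% of 1758 transcript end (TTS) peaks and 74.3% of 1480 exon peaks. It was lowest in introns, at 65.9% (65.1 to 66.6%) of 16159 peaks, and between genes, at 64.3% (63.2 to 65.4%) of 7283 peaks, whose intervals touch. Relative to the windows of the same class the order turned around, although this ratio has a ceiling. It cannot pass the value reached when every peak is held, and that value is lower where more windows overlap D4. Promoter-TSS windows overlapped D4 in 48.7%, so their cKit+ peaks were held 1.77 times as often, whereas intergenic windows overlapped D4 in 6.41% and their cKit+ peaks were held 10.0 times as often. The plot of the share held by class shows both readings.

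**Figure D1:**
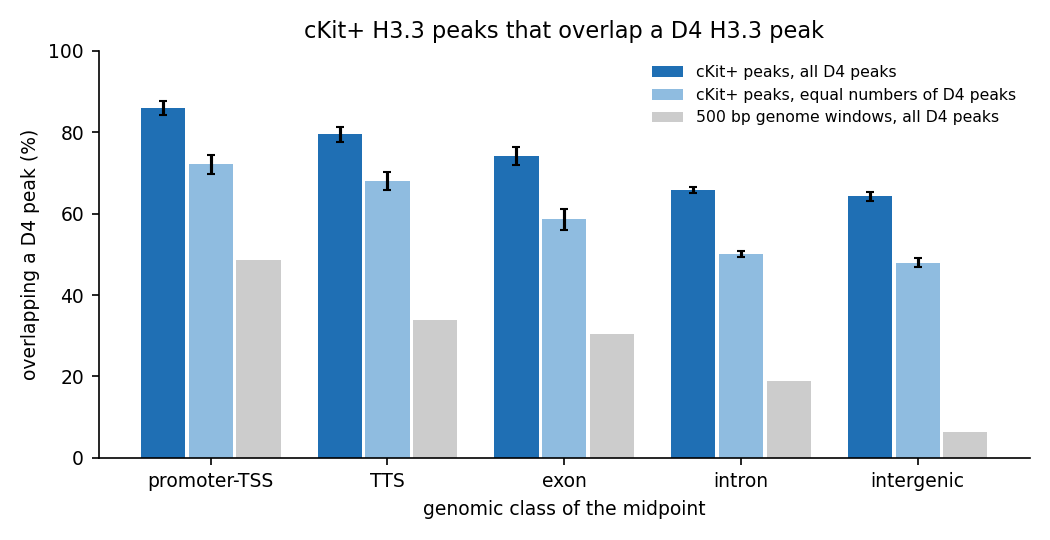
Percentage of cKit+ H3.3 peaks that overlapped a D4 peak, by genomic class of the peak midpoint, with all D4 peaks (dark bars) and with the 28076 D4 peaks of highest tag count (light bars). Grey bars give consecutive 500 bp genome windows of the same class and all D4 peaks, and error bars are 95% Wilson intervals; the cKit+ bars lie above the windows in every class, from 86.0% against 48.7% at starts to 64.3% against 6.41% between genes.

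With equal numbers of peaks, taking the 28076 D4 peaks of highest Normalized Tag Count, 14646 cKit+ peaks were held, or 52.2% (51.6 to 52.8%), against 7.47% of windows. The order of the classes was kept at the top, with 72.1% at promoter-TSS, 68.0% at TTS and 58.6% in exons, and introns at 50.0% and intergenic peaks at 48.0% followed. Equal numbers did not mean equal sequence, because these D4 peaks had a median of 4332 bp and still covered 177.2 Mb. When D4 peaks were ranked by tags per kb instead, 45.4% of cKit+ peaks were held, and the last places turned around, with 41.9% of intron and 45.9% of intergenic peaks held. When the D4 list was shortened, after its lengths had been seen, until it covered no more bases than the cKit+ list, only 346 long peaks remained, and these held 6.80% of cKit+ peaks against 0.698% of windows.

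The cKit+ peaks concentrated in the long D4 domains. Inside D4 peaks longer than 20 kb there were 106.1 cKit+ peak midpoints per Mb, inside those of 5 to 20 kb 83.4, and inside D4 peaks of at most 500 bp 34.6, against 4.66 per Mb outside D4 peaks. Of the 917 D4 peaks longer than 20 kb, 816 carried a cKit+ peak, or 89.0%. The D4 domain with the most was the longest, chr14:26275783-26494389, which held 30 cKit+ peaks. The longest D4 domains thus nearly always carried cKit+ peaks, and 2929 D4 peaks held 2 or more. In the opposite direction, 13354 of 108179 D4 peaks were touched by cKit+, or 12.3% (12.2 to 12.5%). The share rose from 2.69% in the lowest decile of D4 peaks by tag count to 51.2% in the highest, and from 4.35% to 38.0% by tags per kb. A longer peak has more tags and is touched more easily, and per base the part of D4 sequence under cKit+ peaks rose from 1.86% to 6.79% over the deciles of tags per kb.

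**Figure D2:**
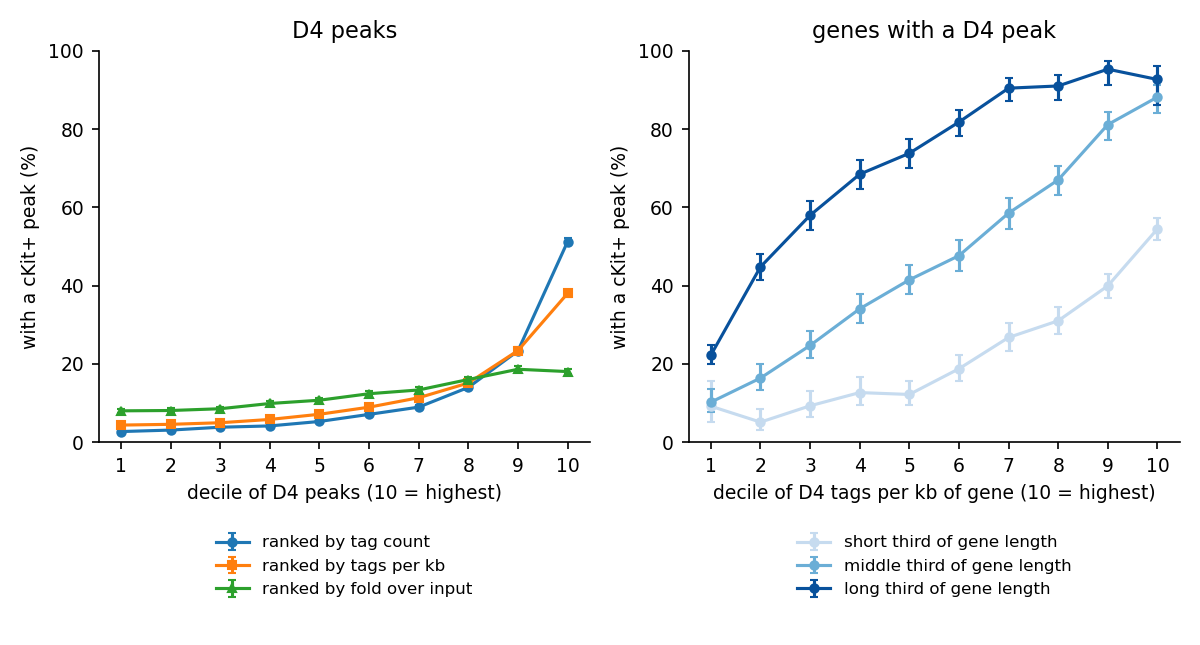
Left, percentage of D4 peaks touched by a cKit+ peak in each decile of D4 peaks, ranked by tag count, by tags per kb or by fold over input. Right, percentage of D4-bound genes with a cKit+ peak in each decile of D4 tags per kb of gene, separately for tertiles of gene length. Bars are 95% Wilson intervals, and the share is far higher in the top than in the bottom decile by tag count (2.69% and 51.2%) and in each tertile of gene length, with small dips between neighbouring deciles.

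Peaks that D4 held and peaks that it did not hold were alike in fold and density but differed in length and place. Unheld peaks were at the minimum of 500 bp in 76.6% of cases against 59.6%, and their median tag count was 4.52 against 5.07. Median fold over input was 2.18 in held and 2.19 in unheld peaks, and median density 8.96 and 8.72 tags per kb. Unheld peaks were less often genic, at 71.3% against 75.4%, a difference of -4.12 percentage points (-5.24 to -3.01). They were less often promoter-TSS peaks, at 2.15% against 6.31%, and more often intronic, at 60.9% against 55.9%, and intergenic, at 28.7% against 24.6%. The difference in the genic share was small and depended on the D4 peaks used: it was -0.957 points (-2.51 to 0.574) among peaks at or above the median tag count of each library, and 0.548 points (-0.481 to 1.58) with equal numbers ranked by tags per kb.

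The other stages, which took no part in dividing the peaks, separated held from unheld cKit+ peaks further. MEF peaks overlapped 36.7% (36.02 to 37.4%) of the held and 2.76% (2.44 to 3.12%) of the unheld peaks. The sorted cKit- cells overlapped 20.2% (19.6 to 20.8%) of the held and 9.88% (9.28 to 10.5%) of the unheld. Of all 500 bp genome windows, 3.26% overlapped a MEF peak and 1.20% a cKit- peak, so the unheld peaks met cKit- more often than the windows did. These windows include those under D4 peaks, where unheld peaks cannot lie, and windows outside D4 were not counted apart. The MEF share of the unheld peaks therefore has no matched background here. Unheld peaks were thus found more often in cKit- than in MEF, and held peaks more often in MEF than in cKit-. No other H3.3 library of the series overlapped 47.7% (46.7 to 48.7%) of the unheld peaks, against 7.27% (6.91 to 7.64%) of the held ones. A peak called in 1 library alone has no second measurement here.

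The classes that cKit+ peaks fell into differed from those of D4. Introns held 57.6% (57.0 to 58.1%) of cKit+ peaks and 49.6% of D4 peaks, and intergenic sequence 25.9% and 35.1%. Start sites held 4.97% and 6.71%. Along genes of at least 10 kb, the first decile of the gene body held 14.4% of the bases covered by D4 peaks and 10.9% of those covered by cKit+ peaks, where an even spread gives 10% in each decile. The cKit+ coverage was thus flatter along the gene body, and its last decile, at 11.2%, was as high as its first. In MEF the first decile held 15.6% and in cKit- 13.0%.

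At the level of genes, nearly all that carried H3.3 in cKit+ also carried it in D4. A gene was first called bound where the midpoint of a peak lay in it or within 1 kb of its ends. By this rule 7149 of 22238 protein-coding genes, or 32.1%, were bound in cKit+ and 66.8% in D4, and 6736 of the 7149, or 94.2% (93.7 to 94.7%), were bound in D4. The midpoint rule failed for long D4 peaks, whose midpoint can lie outside a gene that they cover. Of the 413 cKit+ genes without a D4 midpoint, 305 were overlapped by a D4 peak. Among these were the splicing factor gene Srsf3, the SUMO protease gene Senp3, the ATP synthase gene Atp5b and the solute carrier gene Slc35b2. Srsf3, for example, had 54.0 cKit+ tags and 259.2 D4 tags, from a D4 peak of 29.8 kb that ran past the gene.

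Genes were therefore also called by any overlap of a peak, a rule chosen after this was seen, and gene levels were taken as the tags of each peak spread evenly over its length and summed over the gene. By overlap, 33.3% of genes were bound in cKit+ and 72.1% in D4, and 7295 of 7408 cKit+ genes, or 98.5% (98.2 to 98.7%), carried D4 peaks. Only 113 cKit+ genes had none. With the equal number of D4 peaks, which bound 53.4% of genes, 88.5% (87.8 to 89.2%) of cKit+ genes were held. Levels were far lower in cKit+, with a median over genes bound in both of 6.55% of the D4 tags. They count only tags inside called peaks, which covered 17.7 Mb in cKit+ and 267.1 Mb in D4. The median density inside peaks was closer, at 8.90 tags per kb in cKit+ and 10.9 in D4. This percentage and those given below thus follow how much sequence was called, and do not measure the H3.3 retained.

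Genes kept from D4 were longer and more heavily covered in D4. The 7295 kept genes had a median length of 33.1 kb and 5.41 D4 tags per kb, and the 8748 bound in D4 alone 16.0 kb and 2.62 tags per kb. Within genes of the longest tertile, the kept share rose from 22.2% in the lowest decile of D4 tags per kb to 92.7% in the highest, and within the shortest tertile from 9.17% to 54.5%. Both the D4 level and the length thus went with retention. Genes already bound in MEF were kept in 54.6% (53.7 to 55.5%) of 11672 cases, and genes bound in D4 and not in MEF in 21.0% (19.8 to 22.2%) of 4371. In the highest tertile of D4 tags per kb these shares were 61.6% and 26.8%, and in the lowest tertile 40.8% and 18.3%, so genes without a MEF peak were kept less often in each of these tertiles. A missing MEF peak was not the same as a gain by day 4, since MEF peaks took up 7.64% of that library's tags and D4 peaks 37.2%. Of the 918 kept genes without a MEF peak, 742, or 80.8%, had a peak in D0, the day 0 fibroblast library of the pluripotency experiment. D4 genes bound in D0 and not in MEF were kept in 29.5% (27.7 to 31.3%) of 2516 cases, and those bound in neither in 9.49% (8.24 to 10.9%) of 1855.

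The 4 delivered factors differed in how their cKit+ peak tags compared with those in D4. Runx1, the core binding factor of blood stem cell emergence, had 682.6 tags in MEF, 1266 in D4, 117.2 (110.3 to 124.4) in cKit+ and 115.1 in cKit-, with 20 cKit+ peaks over its 224.6 kb on chr16:92601712-92826311. Lmo2, an adaptor of the Scl complex, had no MEF peak, 56.1 tags in D4, 10.6 (8.57 to 12.9) in cKit+ and 8.14 in cKit-. Bmi1, a Polycomb protein of stem cell renewal, had 6.10 tags in MEF, 74.0 in D4, 4.2 in cKit+ and 9.91 in cKit-. Tal1, which encodes Scl, had no MEF peak, 111.6 tags in D4, 2.21 in cKit+ from the edge of 1 peak, and 24.0 in cKit-, and it was unbound in cKit+ by the midpoint rule. All 4 were bound in D4, as were 72.1% of all genes by overlap, and each had less in cKit+ than in D4. Only 33 of the 7295 genes bound in both had more in cKit+, so the lower level was not particular to the factors. The vectors carried mouse Scl and human Lmo2, and reads from integrated copies could map to exons of the genes, which was not tested.

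Kit, the receptor on which the cells were sorted, had no cKit+ and no cKit- peak, and 43.0 tags in D4. Ptprc, which encodes the pan-leukocyte antigen CD45, had 6.20 tags in D4, no cKit+ peak and 45.3 tags in cKit-. Among the defining blood markers, Cd34 had 9.64 tags in cKit+, Sfpi1 (PU.1) 4.74, Myb 36.4 and Gata2 3.98, while Gata1 had no peak in D4, cKit+ or cKit-. These markers were chosen after their values were seen, and Sfpi1 and Gata2 lay near the lowest tag count called in cKit+, 3.54. H3.3 peaks thus marked some of these genes in cKit+, but not the sort marker itself. By overlap, cKit+ peaks marked 53.8% of the 93 listed hematopoietic genes and 62.1% of the 58 listed fibroblast genes, against 33.3% of all genes. The listed genes were longer, with medians of 33.1 and 29.35 kb against 15.5 kb for all genes.

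Fewer genes were bound in cKit+ than in D4 in both the hematopoietic and the fibroblast lists, as over all genes, where the share went from 66.8% to 32.1%. Which list changed more depended on the peaks compared. By midpoint, 47 of 93 hematopoietic genes (transcription factors, surface receptors and signalling genes) were bound in cKit+ against 77 in D4, and 35 of 58 fibroblast genes (matrix, mesenchymal and contractile genes) against 51. The change in the hematopoietic share minus that in the fibroblast share was -4.67 percentage points (-24.4 to 14.8). With equal numbers of peaks it was 17.0 points (-4.47 to 37.6), and with the top 10000 peaks of each library 25.4 points (3.54 to 45.6). The sign thus depended on how many D4 peaks were compared, and of these 3 intervals only the last lay above 0. In tags, the fibroblast lists kept 4.21% of their D4 sum and the hematopoietic lists 6.87%, against 4.43% over all genes. Over the genes bound in both, the median kept was 3.83% for the 36 fibroblast and 9.57% for the 50 hematopoietic genes, against 6.55% for all genes. These medians cover only genes with a called cKit+ peak, which sets a lower limit on the percentage of genes low in D4, and the hematopoietic lists had a median of 1.99 D4 tags per kb against 12.2 for the fibroblast lists.

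The retained share differed widely between lists, as the plot of bound shares by list shows. These counts are by overlap, where 45.5% of all D4-bound genes were kept. Of 24 housekeeping genes bound in D4, 21 were kept, and of 11 genes of H3.3 and its chaperones, 10. At the other end, 1 of 15 neuronal genes, 1 of 9 lymphoid, 1 of 9 erythroid and megakaryocyte and 2 of 12 endothelial genes were kept. Part of this went with the number of D4 peaks, as D4 itself bound fewer genes of each of these lists with equal numbers. With equal numbers D4 bound 7 of 20 neuronal and 4 of 15 lymphoid genes, and cKit+ 1 of each list. D4 with equal numbers still bound 6 of 15 erythroid and megakaryocyte and 8 of 15 endothelial genes, and cKit+ 1 and 2. By midpoint the neuronal change was -65.0 points with all peaks and -20.0 (-42.2 to 3.18) with equal numbers, and the lymphoid change -53.3 and -13.3 (-39.1 to 13.2). By the same rule D4 with equal numbers bound 5 erythroid and megakaryocyte and 8 endothelial genes, and cKit+ 1 and 2. Intervals for these changes are not given, and the small lists were not ranked by the drop that remained. The neuronal genes were long, with a median of 52.0 kb, but thinly covered in D4, at 0.809 tags per kb, against 14.0 for the housekeeping genes. In between, 7 of 9 myeloid markers, 3 of 9 mast cell markers, 22 of 33 hematopoietic transcription factors, 17 of 28 signalling genes and 11 of 24 surface receptors were kept, as were 20 of 30 matrix genes and 16 of 26 mesenchymal and contractile genes.

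**Figure D3:**
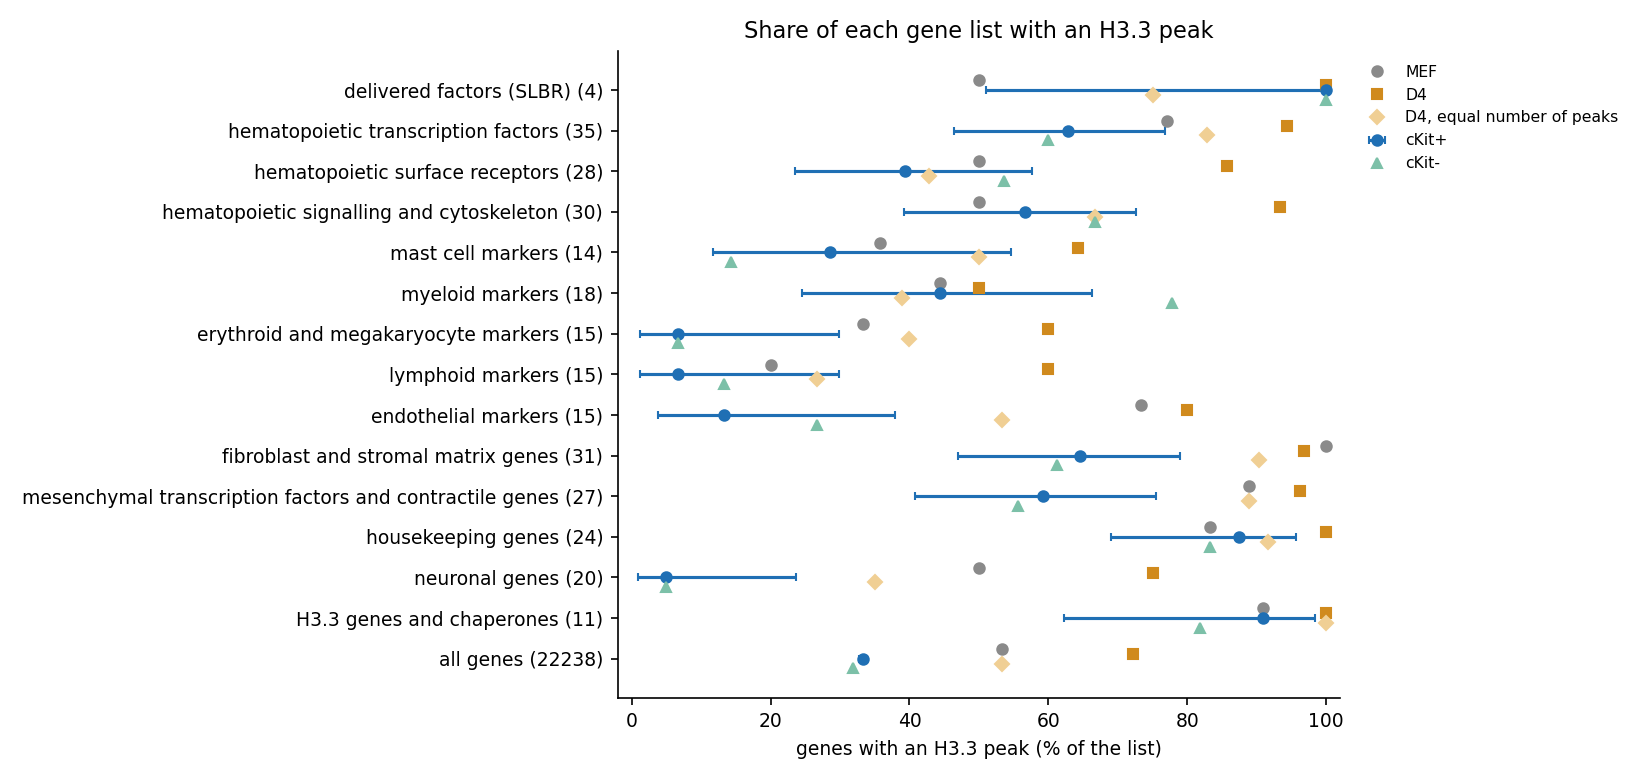
Percentage of the genes of each list that an H3.3 peak overlapped in MEF, D4, cKit+ and cKit-, and in D4 with as many peaks as cKit+ has; the number of genes is in brackets after the list name, and bars on the cKit+ points are 95% Wilson intervals. Of 24 housekeeping genes, D4 bound 24, D4 with equal numbers 22 and cKit+ 21, and of 20 neuronal genes the same sets bound 15, 7 and 1.

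Among hematopoietic transcription factors the highest cKit+ levels were at Etv6, an ETS repressor, with 189.6 tags against 2633 in D4, at Runx1 and at Ets1, with 67.2 against 1315. Fli1, an ETS activator of blood and endothelium, had 66.4 tags in cKit+ and 247.7 in D4. Myb, required for definitive blood formation, had 36.4 (63.8% of its 57.1 tags in D4), with 6.21 in MEF and 153.3 in cKit-. These genes differed in origin, since Etv6, Runx1 and Ets1 were heavily covered in MEF, at 427.8 to 682.6 tags, and Myb was not. Stat5a and Cbfa2t3 had 138.1 and 140.3 tags in D4 and no cKit+ peak. The D4 signal at Mecom, 843.5 tags, was at 8.28 in cKit+.

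Surface receptor genes of blood cells varied widely in their cKit+ peak tags relative to D4. Csf2rb, the common beta chain of the interleukin 3 and GM-CSF receptors, had no MEF peak, 28.2 tags in D4, 27.6 (24.3 to 31.2) in cKit+ and 86.7 in cKit-. Cd53, a leukocyte tetraspanin, had 17.8 tags in D4, 16.1 in cKit+ and 95.7 in cKit-, again with no MEF peak. Emb, the adhesion protein embigin, had 36.8 in D4 and 18.4 in cKit+, and Itgb2, the leukocyte integrin beta chain, 90.3 and 17.9. Csf2rb and Cd53 stood at 97.8% and 90.5% of their D4 level, far above the median of 6.55% over genes bound in both. A called cKit+ peak sets a lower limit on this percentage for genes low in D4. Csf2rb had 0.946 D4 tags per kb, against a median of 5.41 over genes bound in both. Of its 27.6 cKit+ tags, 19 came from a peak at the end of the gene that no D4 peak overlapped. The 97.8% thus compares tags over the whole gene and is not D4 signal kept in place. Itga2b, an integrin of megakaryocytes, had 163.2 tags in D4 and no cKit+ peak.

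Signalling genes were led by Lyn, a Src family kinase of blood cells, with 67.1 tags in cKit+, 728.3 in D4 and 241.5 in cKit-. Elmo1, a regulator of Rac, had 50.6 in cKit+ and 613.4 in D4, and Jak2, the kinase of cytokine receptors, 31.3 and 178.8. Lcp2, the adaptor SLP-76, was the 1 gene of this list with more in cKit+ than in D4, at 8.12 against 6.04 tags, with 83.4 in cKit-. Its counting intervals overlapped, at 6.381 to 10.19 in cKit+ and 4.285 to 8.274 in D4. Prkcb and Pik3cd had 160.4 and 143.7 tags in D4 and no cKit+ peak. Lyn, Elmo1 and Lcp2 stood higher in cKit- than in cKit+, and Jak2, at 15.3 tags in cKit-, lower. Over all genes the summed tags in peaks were also higher in cKit-, at 230790 against 164867 in cKit+.

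Of 18 myeloid markers, 8 were overlapped in cKit+ (44.4%), 9 in D4 (50.0%) and 14 in cKit- (77.8%), against 33.3%, 72.1% and 31.9% of all genes. By midpoint the order of cKit+ and D4 turned, with 8 and 6 of them bound. Cd68, a macrophage glycoprotein, had 24.6 tags in cKit+ against 82.1 in D4. Lyz2, the lysozyme gene of macrophages and granulocytes, had 5.94 tags in cKit+ and no peak in D4, MEF or cKit-. Of 14 mast cell markers 4 were bound in cKit+ (28.6%, near the share of all genes), led by Mitf with 52.2 tags, and Cpa3, the mast cell carboxypeptidase, had 4.47 tags in cKit+ alone. The peaks at Lyz2 and Cpa3 were single 500 bp peaks near the lowest tag count called in cKit+, 3.54, where the lowest in D4 was 4.00. Ctsg, S100a8 and Cybb had 33.2, 30.8 and 21.9 tags in cKit- and no cKit+ peak, whereas Fcer1g had 5.42 in cKit+ and no cKit- peak, and Csf1r 9.59 against 5.04.

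Fibroblast genes that remained bound in cKit+ stood at a small part of their D4 level, as genes did in general. The fibroblast lists kept 4.21% of their summed D4 tags, against 4.43% over all genes. Single genes lay on both sides of the 6.55% median over genes bound in both, such as Fn1 at 9.41% and Loxl2 at 4.24%. Among matrix genes, Fn1 (fibronectin) had 657.0 tags in MEF, 1400 in D4, 131.8 in cKit+ and 105.4 in cKit-, and Loxl2 (a collagen cross-linking enzyme) 829.9, 2600, 110.1 and 78.7. Col5a2, a fibrillar collagen gene, had 99.3 in cKit+ against 1362 in D4. Sparc and Tnc, both matrix proteins, were at 0.649% and 0.935% of their D4 level. Fbln2 and Mmp2 had 914.7 and 262.1 tags in D4 and none in cKit+. Among mesenchymal genes, Zeb2, a zinc finger repressor that also acts in blood cells, had 187.6 in cKit+, 810.6 in D4 and 470.9 in cKit-. Runx2, the osteoblast factor, had 153.0 and 1222, and Cald1 (caldesmon), 136.5 and 4422. Cdh2 (N-cadherin) and Twist2 had 1606 and 393.5 tags in D4 and no cKit+ peak. OP9 stromal cells express such genes as well, and their part in the cKit+ values was not tested.

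Among all genes bound in both, the highest cKit+ sums were at long genes: Gm20388, an annotation entry of 4435 kb that runs over many genes, Lpp, Asap1, Fndc3b and Rbms1. Lpp, a focal adhesion protein, had 346.9 tags in cKit+ against 6652 in D4. Ranked by whole peaks with their midpoint in the gene, the highest D4 sums without a cKit+ midpoint were at Adam19, Tspan9, Unc5b, Ptpn14 and Rras2. The part of those peaks inside each gene came to 1367 to 1788 tags, and none had a cKit+ peak. On this last scale Cdh2, above, stood among them. Adam19 is a membrane protease and Unc5b a netrin receptor, and all of these were bound in MEF. For housekeeping genes the highest were Rab7 at 76.6 tags, Gpi1 at 58.3 and Ywhaz at 45.6, each with more in D4 and cKit-. Of the H3.3 genes themselves, H3f3a had 33.7 tags in cKit+ and 212.1 in D4, and H3f3b 21.0 and 121.0, while the chaperone gene Asf1a had 75.9 in D4 and no cKit+ peak.

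The 113 genes with a cKit+ peak and no overlapping D4 peak were of many kinds, and those named here beyond the highest 10 were chosen after their values were seen. Ccr1, a chemokine receptor of myeloid cells, had 17.0 tags (14.4 to 19.9) in cKit+ and 63.0 in cKit-, with no peak in D4 or MEF. Cd69, an early activation antigen of leukocytes, had 11.4 in cKit+ and 11.8 in cKit-, and Lilrb4, an inhibitory receptor of myeloid cells, 11.6 and 19.6. Cd200r4, of the CD200 receptor family, had 14.3 and 20.5. The other genes of the highest 10 were Gda (guanine deaminase) at 28.8, with 104.8 in cKit-, Ttc35 at 30.4, Zdhhc22 at 18.1, Dnajc15 at 17.2, Gm13242 at 14.5 and Trim43c at 13.8. Chosen after their values were seen, Fcgr2b (an inhibitory Fc receptor) had 8.83 and 39.2 tags in cKit+ and cKit-, Ccr2 (the receptor of monocyte attractants) 8.82 and 9.02, and Rgs18 (a regulator of G proteins in megakaryocytes) 5.67 and 29.6. Zdhhc22 and Gm13242 had MEF peaks.

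**Figure D4:**
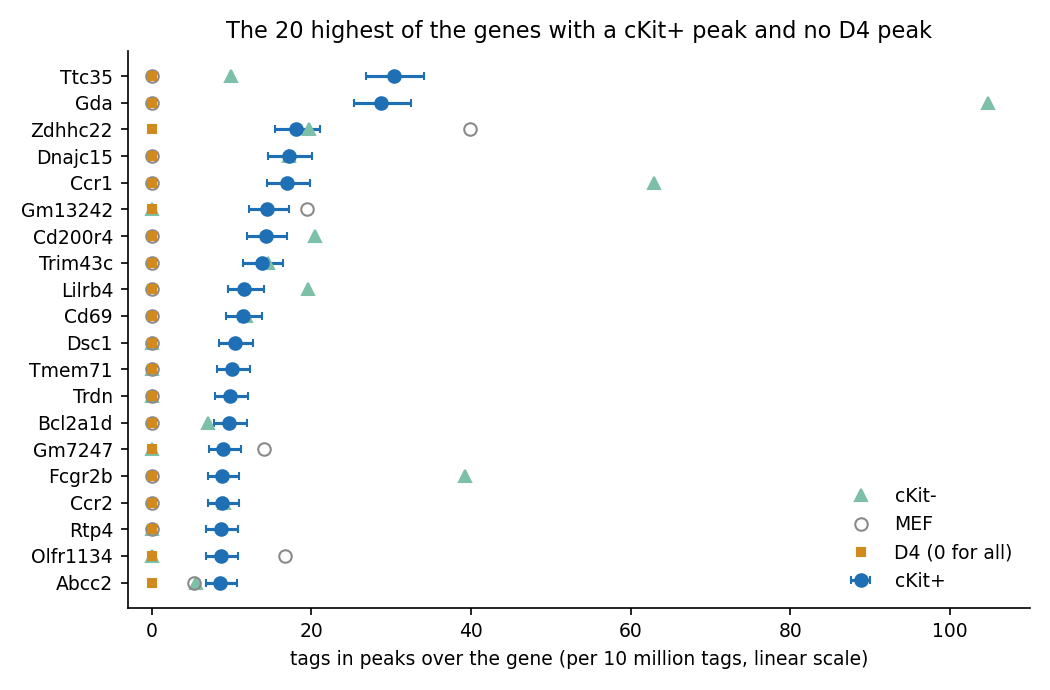
Tags in H3.3 peaks, per 10 M, over the 20 genes with the highest cKit+ level among the 113 that had a cKit+ peak and no D4 peak; the bars on cKit+ are 95% Poisson intervals. D4 is at 0 by the choice of genes, and several genes, among them Gda (104.8) and Ccr1 (63.0), stand higher in cKit- than in cKit+.

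The cKit- library, which had no part in choosing these genes, gave a second measurement. It bound 43 of the 113, or 38.1% (29.6 to 47.3%), against 128 of 6082 genes bound in neither D4 nor cKit+, or 2.10% (1.77 to 2.50%). MEF bound 16 of the 113, or 14.2% (8.91 to 21.8%), and 2.93% of the 6082. The intervals for cKit- and MEF did not overlap within the 113, while within the 6082 MEF had the higher share. Binding of the 113 was not particular to cKit-, since the D12S- and iPSC libraries of the pluripotency experiment bound 35.4% and 33.6% of them, against 7.74% and 12.9% of the 6082. Of the 113 genes, 97 carried a single cKit+ peak, and the median was 4.58 tags, close to the lowest tag count called. The 113 genes were longer than the 6082, with medians of 16.1 and 3.79 kb, and a longer gene offers more room for a peak.

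A further 33 genes were bound in both stages with more tags in cKit+ than in D4, of 7295 kept genes, and in 16 of them the counting intervals were apart. Fndc3a had 13.6 tags in MEF, 133.2 (124.4 to 142.4) in D4, 215.0 (205.6 to 224.7) in cKit+ and 380.8 in cKit-. Ero1l, the oxidase of disulfide formation in the endoplasmic reticulum, had 30.4 in D4, 83.5 in cKit+ and 324.3 in cKit-. Among the rest were genes of leukocytes, chosen after their values were seen: Myo1f, a myosin of immune cells, at 6.54 and 19.7, C3ar1, a complement receptor, at 11.3 and 17.5, Pik3cg, the leukocyte PI3-kinase, at 4.94 and 10.8, Cd200r1 at 12.6 and 21.2 and Cd52 at 0.444 and 5.12. Of the 33, 21 were bound in cKit-, or 63.6%, against 70.1% of all kept genes, and 6 in MEF, or 18.2%, against 87.4%. The direction of these 33 is what chose them, so it was not tested. That choice favours genes low in D4, so all kept genes are not a matched background for the MEF and cKit- shares. In the lowest tertile of D4 tags per kb, 1098 kept genes had a MEF peak and 485 had none. In the highest tertile these numbers were 3035 and 113.

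Motifs at the centres of intergenic peaks differed between D4 and cKit+. Each peak was represented by the 300 bp around its midpoint, and the share of such windows with a match on either strand was set against all consecutive intergenic windows of the genome. The AP-1 motif TGANTCA, bound by Fos and Jun proteins, was in 19.1% (18.7 to 19.5%) of 37772 D4 peaks, 9.53% (8.72 to 10.4%) of cKit+ peaks held by D4 and 8.83% (7.80 to 9.99%) of those not held, against 8.90% of all intergenic windows. Intergenic cKit+ peaks thus held AP-1 matches at about the genome's rate, whether D4 held them or not. The D4 peaks touched by cKit+ had AP-1 in 17.5% (16.2 to 18.9%) around their own midpoint, and D4 peaks of 500 bp, as short as most cKit+ peaks, in 15.5% (14.7 to 16.3%). In MEF the share was 15.4% and in cKit- 10.8%.

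RUNX and E-box matches followed the D4 status of the peak. The RUNX motif TGTGGT was in 29.0% of D4 peaks, 23.7% (22.5 to 24.99%) of held and 19.3% (17.9 to 20.9%) of unheld cKit+ peaks, against 19.5% of windows. Unheld peaks had it less often by 4.41 points, as the difference of unheld minus held was -4.41 points (-6.34 to -2.44). The E-box CAGCTG was in 16.8%, 13.3% and 10.2% of the same sets and 9.64% of windows, with a difference of -3.19 points (-4.68 to -1.64). The GATA motif AGATAA went the other way, at 15.9% of held and 19.2% of unheld peaks and 20.1% of windows. ETS matches were at 8.35% and 8.25%, a difference of -0.0986 points (-1.40 to 1.26), and at 7.15% of windows. Base composition moved with these shares, with a G and C content of 45.9% in D4, 44.6% in held and 41.9% in unheld peaks and 40.9% over the windows, and its part was not tested.

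**Figure D5:**
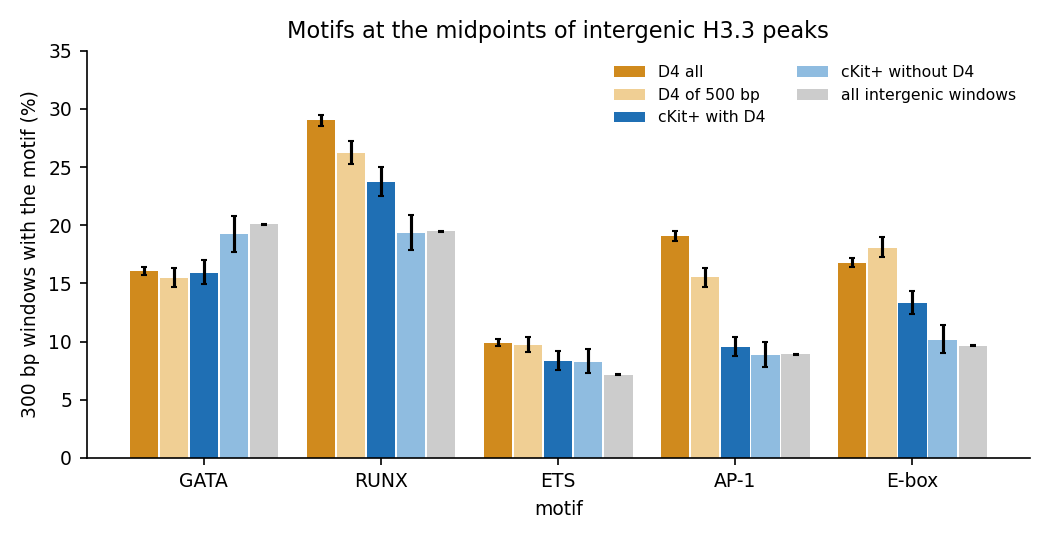
Percentage of 300 bp windows with at least 1 match to each motif, for windows at the midpoints of all intergenic D4 peaks, intergenic D4 peaks of 500 bp and intergenic cKit+ peaks with and without a D4 peak, beside all consecutive intergenic windows of the genome; error bars are 95% Wilson intervals. AP-1 matches fall from 19.1% in D4 to 9.53% and 8.83% in cKit+, next to 8.90% in the windows.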

How the data were processed

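H3.3 ChIP-Seq peak lists of D4 and cKit+ cells were compared, with MEF, cKit- and the other H3.3 lists as reference. Per the submitters' processing notes and the study's methods, reads were mapped to mm9 with STAR and tags and peaks were made with HOMER (versions not given in the sources used here). Per the file headers, the authors called histone-style peaks in each library separately against an input library, at 2-fold or more and a Poisson p-value of 1.00e-04, unadjusted. The Normalized Tag Count is a deposited signal, scaled by the authors to 10 M tags, not divided by length and and still includes the input. A deposited ratio gives each peak's fold against input. The total and input tags are deposited signal values too.

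The reference (NCBI build 37, with GENCODE vM1) held every chromosome end of the peaks within its lengths. Peaks were classed by midpoint: promoter-TSS (1000 bp upstream to 100 bp downstream of a start), TTS (100 bp upstream to 1000 bp downstream of an end), exon, intron, intergenic. Genes were the longest entry per symbol; 275 of 276 list symbols matched. With 1 library per group no test was made; shares carry Wilson, differences Newcombe and tag sums Poisson 95% intervals, for counting error only. Named genes were the delivered factors, Kit, up to 3 of each list with most cKit+ tags, up to 3 bound in cKit+ and not in D4, up to 2 bound in D4 alone, and the 5 highest of all genes in each of these 3 classes; Fli1, Myb, Mecom, Cd53, Cd34, Ptprc, Sfpi1, Gata1, Gata2, Sparc, Tnc, Ctsg, S100a8, Cybb and the genes said so in the text were chosen after their values were seen. Some genes that the rule names are not reported here. The members and lists were chosen with earlier results of these data known. Functions were checked on simulated intervals. Of the alternatives, 8 were fixed beforehand and 3 were added after seeing the data. Python 3.11, numpy, pandas and scipy were used. Lists of histone methylation marks were not used here.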

Additional observations from a re-analysis of the deposited data

How the results depend on the processing

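No paired analysis was possible because each group was 1 library. The share of cKit+ peaks held by D4, 67.8%, was 52.2% with equal numbers by tag count, 45.4% with equal numbers by tags per kb, 48.1% with the top 10000 peaks of each library, 69.1% at or above the library medians and 61.9% where at least 0.5 of the peak had to be covered. The share of cKit+ genes bound in D4, 94.2%, was 79.3%, 77.9%, 59.7% and 91.6% under the first 4 of these, 98.5% by any overlap and 88.5% by any overlap with equal numbers. The genic difference between unheld and held peaks, -4.12 points, was 0.548 with equal numbers by tags per kb, -5.87 with the top 10000 and -0.957 at or above the medians. The hematopoietic minus fibroblast change, -4.67 points, was 17.0 with equal numbers, 25.4 with the top 10000 and 15.8 by any overlap with equal numbers. The change in the share of surface receptor genes bound turned to 3.57 points with equal numbers. With D4 cut to equal covered bases, which leaves 346 peaks, these values were 6.80%, 3.93%, -12.3 and 15.6 points. Under that setting the change in share bound also turned upward for hematopoietic transcription factors (54.3 points), surface receptors (35.7), erythroid and lymphoid markers (6.67 each), endothelial markers (13.3), matrix (25.8), mesenchymal (40.7) and neuronal genes (5), and for the hematopoietic (48.4) and fibroblast lists (32.8) as a whole, as fewer D4 genes could be bound. For the class shares and single lists, outside the first 4 comparisons, 138 values stayed, 11 reversed and 51 moved, some of them to 0 or across it from a change whose interval included 0. The equal covered bases and any overlap settings were chosen after seeing the data. The low share of cKit+ tags in peaks limits every statement on loss.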
